A study of Mus musculus with 32 samples.

Results

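The comparison described here is how far the response of the injured mouse liver to thyroid hormone depends on thyroid hormone receptor beta. It was taken over 16 of the 32 liver RNA-seq libraries of the series, all from mice given carbon tetrachloride (CCl4), in 4 groups of 4 libraries. For each gene, the response of knockouts to triiodothyronine (T3 minus PBS) was set against the response of wild-type mice, and the difference between both responses is called the genotype difference in T3 response below. Titles in the labels were matched to columns of the count table by animal number, so each library is a separate mouse.

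The groups were wild-type mice on PBS, wild-type mice on T3, thyroid hormone receptor beta (Thrb) knockouts on PBS and Thrb knockouts on T3, and all 4 carried the CCl4 injury. All of the mice, the PBS controls included, ate a PTU/LID diet, which is used to lower the animal's own thyroid hormone. CCl4 was given at 0.4 µl/g in 2 injections per week over 4 weeks, 9 injections in all. T3 groups drank water with 1 µg/ml T3 in the final week. Liver RNA was taken 24 h after the final CCl4 dose and sequenced as polyadenylated RNA. The sources used here do not give the strain, the age, the part of Thrb that was removed or whether it was removed in every cell. Xist was counted 6043 to 21897 times in each of the 16 libraries and the Y-linked Ddx3y and Uty 0 times, so all 16 mice were female by these genes.

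T3 acts through a pair of nuclear receptors, alpha and beta, of which beta is the main form in hepatocytes. They sit on DNA beside retinoid X receptors, recruit corepressors when no hormone is bound and coactivators when it is, so a gene that hormone raises can be held down while the receptor is empty. In the liver T3 is known for raising Dio1, fat and cholesterol synthesis and mitochondrial genes. CCl4 is turned into a radical by Cyp2e1 in pericentral hepatocytes, and repeated doses kill these cells, draw in inflammatory cells and turn stellate cells into matrix-producing myofibroblasts.

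Library totals lay between 17109426 and 25562244 counts, and no pair of libraries held identical counts. Livers carried the hepatocyte markers of the labelled tissue, with a sum over 8 markers of 51300 to 75000 CPM (counts scaled to a common library size) on PBS and 85100 to 124000 on T3 in wild-type mice, and of 59100 to 121000 and 98100 to 127000 in knockouts. A pair of libraries stood apart from their groups: wild-type PBS replicate 2 lay 83.7 and knockout PBS replicate 3 lay 75.9 from its group mean, as the Euclidean distance over the log2 CPM of all tested genes, against 30.6 to 67.1 for the other 14. Next farthest, at 67.1, was wild-type PBS replicate 4. Where a list's count of genotype differences moved by over 1.5 times with 1 library left out, its range over the 16 such fits is given. CPM values below are scaled by TMM library sizes, and changes are log2 differences ± an approximate standard error. That error is the size of the change divided by the square root of its F statistic, and was not estimated by the fit itself. Adjusted p values are Benjamini-Hochberg values from edgeR's quasi-likelihood test over all tested genes. A gene is said to have risen, fallen or differed at an adjusted p under 0.05.

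Thrb itself (ENSMUSG00000021779, chromosome 14, 17660261 to 18038090 on GRCm38) measured 25.3, 11.4, 35.6 and 28 CPM in the 4 wild-type PBS livers and 47.2, 43.9, 47.7 and 35.2 on T3. Knockout livers held 24.5, 23.4, 16.9 and 20.4 CPM on PBS and 26.1, 21.4, 17.1 and 21.6 on T3. The wild-type T3 livers lay above all 8 knockout livers, while the PBS groups overlapped. Counts are summed over the whole gene and do not show a deleted exon, so these levels do not check the knockout. Thrb rose with T3 in wild-type livers by 0.79 ± 0.25 (adjusted p = 0.0232), and its genotype difference in T3 response, -0.78 ± 0.36, did not pass the test (adjusted p = 0.148). For Thra, the gene of the alpha receptor, the difference was -0.70 ± 0.33 (adjusted p = 0.16).

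Of 15073 tested genes, 2300 differed in their T3 response between genotypes (15.3%), and 4713 had an unadjusted p under 0.05. The response was lower in knockouts for 1281 genes (8.5%) and higher for 1019 (6.76%). In wild-type mice 5356 genes changed with T3 (35.5%), of which 2647 rose (17.6%) and 2709 fell (18%). In knockouts 123 genes changed (0.816%), of which 107 rose (0.71%) and 16 fell (0.106%). On PBS the genotypes differed in 46 genes (0.305%), with 36 higher (0.239%) and 10 lower (0.0663%) in knockouts. On T3 they differed in 2464 genes (16.3%), with 1078 higher (7.15%) and 1386 lower (9.2%). These contrasts share groups of mice, so their counts are not independent of each other.

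Genes with a lower response in knockouts were mostly genes that T3 raised in wild-type livers. Of the 1281, 1201 rose with T3 in wild-type mice, 13 rose in knockouts and 4 fell in knockouts. Their median T3 response was 1.16 in wild-type livers and -0.14 in knockouts on the log2 scale. Knockouts were higher on PBS by a median of 0.42, and their median difference from wild-type mice on T3 was -0.89. On T3 the genotypes did not differ in 281 of these genes. Among the 1019 with a higher response, 897 fell with T3 in wild-type livers, with a median of -1.25, and 37 rose in knockouts, where the median was 0.19. Over the 1019 the median genotype difference was -0.47 on PBS and 0.95 on T3, and 322 did not differ on T3. The 4 genes that fell in knockouts with a lower response were Cps1 of the urea cycle, described below, Rdh16, a retinol dehydrogenase, Dmgdh, an enzyme of choline breakdown, and Coq7, a hydroxylase of coenzyme Q synthesis. Rdh16 measured 95.2, 103, 54.8 and 153 CPM in knockout PBS livers and 36.7, 18.9, 31.4 and 37.8 on T3, with no overlap, and differed by -2.02 ± 0.46 (adjusted p = 0.00928). Dmgdh and Coq7 differed by -0.92 ± 0.25 and -0.48 ± 0.14 (adjusted p = 0.0241 and 0.0312), calls lost without any 1 of 4 and of 8 libraries. The Coq7 call was also lost with total-count scaling, no filter on low counts, all 32 livers in 1 fit or a block on replicate number. Of the 1019, 2 fell in knockouts and further in wild-type livers: the noncoding RNA Gas5, with responses of -1.92 ± 0.17 in wild-type mice and -0.90 ± 0.16 in knockouts and a difference of 1.03 ± 0.23 (adjusted p = 0.00825), and Gm3776, with 1.25 ± 0.40 (adjusted p = 0.0472), lost without any 1 of 13 libraries. A sign change between the fitted responses was present in 883 of the lower and 703 of the higher genes. No T3 response in knockouts was called for 1264 of the 1281 lower and 980 of the 1019 higher genes. The genes were picked by a contrast of the same 4 groups. Neither these signs nor the medians are independent of that choice, and the signs alone do not show a reversed response. Over all tested genes the median response was -0.06 in wild-type mice and -0.02 in knockouts.

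The balance between the directions moved with the scaling. With total counts in place of TMM sizes, 1539 genes were higher and 810 lower in knockouts, and the median genotype difference over all genes moved from 0.06 to 0.31. Under that scaling 1370 genes rose and 5665 fell with T3 in wild-type mice, 67 rose and 24 fell in knockouts, and on T3 knockouts were higher in 1286 and lower in 945. The number of genes also moved with single libraries: 3535 differed without knockout PBS replicate 3, 3465 without wild-type PBS replicate 4 and 3685 without both libraries farthest from their groups, an alternative chosen after seeing the data. The 123 genes that changed in knockouts became 36 without knockout T3 replicate 2, 53 without knockout T3 replicate 4, 39 without knockout PBS replicate 1, 45 without knockout PBS replicate 4 and 267 without wild-type PBS replicate 2. The 46 genes that differed on PBS became 12 to 30 without any 1 of 6 libraries and 333 without wild-type PBS replicate 4. The 2464 that differed on T3 became 1637 without knockout T3 replicate 2 and 1532 without knockout T3 replicate 3.

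**Figure D1:**
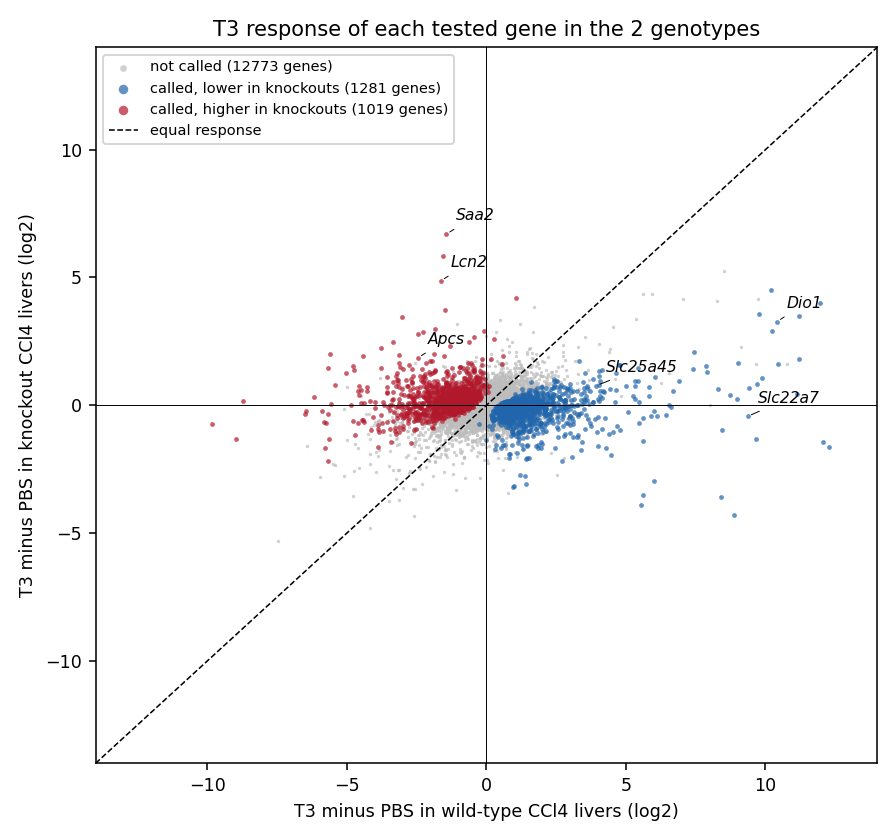
Each point is 1 of 15073 tested genes, with its T3 minus PBS difference (log2) in wild-type CCl4 livers on the horizontal axis and in knockout CCl4 livers on the vertical axis; blue marks the 1281 genes with a lower and red the 1019 with a higher response in knockouts, and the dashed line marks equal responses. Most coloured points lie along the horizontal axis, where the wild-type response is large and the knockout response is near 0.

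Slc25a45, which encodes a mitochondrial carrier of the SLC25 family, had the smallest adjusted p of all genes (ENSMUSG00000024818, chromosome 19, 5877808 to 5885878). It measured 9.73, 8.76, 9.6 and 8.32 CPM in wild-type PBS livers and 117, 145, 140 and 157 on T3. In knockouts it stood at 30.9, 30.7, 24.3 and 33.8 CPM on PBS and 44.7, 52.1, 49.8 and 57.3 on T3. The 4 groups did not overlap, in the order wild-type T3, knockout T3, knockout PBS, wild-type PBS. T3 raised it by 3.94 ± 0.14 in wild-type mice and by 0.77 ± 0.12 in knockouts, and the genotype difference was -3.17 ± 0.18 (adjusted p = 1.77e-07). On PBS the knockouts were also higher than wild-type mice, by 1.72 ± 0.13 (adjusted p = 1.05e-05).

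Promoter sequence was looked at because thyroid hormone receptors bind the half-site AGGTCA, often as a pair spaced by 4 bases. In the 250 bases before each start in RefSeq's GRCm38.p6 table, the half-site AGGTCA was found on either strand for 13.7% of the 11091 tested genes that have a window. The share was 18.3% of 978 genes with a lower response in knockouts and 13.3% of 769 with a higher one, and 14% over all 32851 windows of the table. The paired motif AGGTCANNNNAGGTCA was found in 0 of the tested genes' windows and in 5 windows of the whole table. A match describes these letters and not a bound site. Of the 10 genes with the smallest adjusted p and a lower response, 8 have a window and 2 of them hold the half-site, Slc25a45 and Coq10a. Their windows are shown for that reason, 5′ to 3′ on the gene's strand, with the half-site or its reverse complement in capitals, at chr19:5877572-5877821 on the plus strand and chr10:128370038-128370287 on the minus strand.
Slc25a45: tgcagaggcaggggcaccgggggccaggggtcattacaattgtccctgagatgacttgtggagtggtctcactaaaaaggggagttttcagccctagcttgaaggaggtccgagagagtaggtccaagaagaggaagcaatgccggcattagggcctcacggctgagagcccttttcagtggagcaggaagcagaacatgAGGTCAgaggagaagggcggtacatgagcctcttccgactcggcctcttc
Coq10a: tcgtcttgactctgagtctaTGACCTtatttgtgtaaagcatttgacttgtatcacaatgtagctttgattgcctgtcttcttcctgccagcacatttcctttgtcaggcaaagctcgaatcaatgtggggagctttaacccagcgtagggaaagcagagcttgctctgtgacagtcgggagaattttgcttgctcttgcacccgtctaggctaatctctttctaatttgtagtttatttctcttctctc
The half-site begins 50 bases before the start in Slc25a45 and 230 bases before it in Coq10a. The Coq10a window belongs to 1 of its 2 listed starts and lies upstream of the gene span given below. The other window, chr10:128368981-128369230 at the start of that span, holds no match.

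Coq10a, a partner of coenzyme Q in the respiratory chain (ENSMUSG00000039914, chromosome 10, 128363100 to 128368997), measured 17.7, 14.1, 14.9 and 16.5 CPM in wild-type PBS livers and 55.5, 56, 55.5 and 70.5 on T3. In knockout livers the levels were 18.6, 18.3, 20.1 and 17.6 CPM on PBS and 18.4, 17.5, 17 and 20.5 on T3. All 4 wild-type T3 livers lay above the other 12, which overlapped. Its response was 1.91 ± 0.11 in wild-type mice and -0.03 ± 0.11 in knockouts, a difference of -1.93 ± 0.16 (adjusted p = 7.52e-06).

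Dio1, the type 1 deiodinase that converts thyroid hormones in the liver, rose in both genotypes (ENSMUSG00000034785, chromosome 4, 107291465 to 107307169). Wild-type livers held 0.725, 0.44, 1.08 and 0.862 CPM on PBS and 908, 1130, 1060 and 1220 on T3. Knockouts held 8.68, 16, 4.2 and 21.3 CPM on PBS and 144, 119, 83 and 139 on T3. No group overlapped another, and the knockout PBS livers lay above the wild-type PBS livers. T3 raised Dio1 by 10.42 ± 0.54 in wild-type mice and by 3.28 ± 0.39 in knockouts (adjusted p = 0.00498), and the difference was -7.14 ± 0.58 (adjusted p = 7.52e-06).

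Slc22a7, an organic anion transporter of hepatocytes, rose in wild-type livers with no called response in knockouts (ENSMUSG00000067144, chromosome 17, 46432183 to 46438457). It measured 0.341, 0.176, 0.23 and 1.51 CPM in wild-type PBS livers and 318, 304, 275 and 595 on T3, against 4.53, 15.4, 3.26 and 3.8 and 4.44, 6.66, 3.46 and 5.37 in knockouts. All 8 knockout livers lay between the wild-type groups. The response was 9.37 ± 0.74 in wild-type mice and -0.43 ± 0.53 in knockouts (adjusted p = 0.797), a difference of -9.80 ± 0.87 (adjusted p = 1.44e-05).

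The other 6 genes among the 10 with the smallest adjusted p and a lower response were also highest in the wild-type T3 livers. Dnah11, a heavy chain of axonemal dynein, rose from 0.0853, 0.044, 0.0384 and 0.0862 CPM to 21.5, 43.6, 37.1 and 37.3 in wild-type livers and stayed between 0.118 and 0.537 CPM in all 8 knockouts. Fndc5, the precursor of irisin, rose from 0.896, 0.924, 0.384 and 0.776 CPM to 32.4, 31.1, 31.8 and 23.6 in wild-type livers, while the 8 knockout livers held 0.385 to 1.09 CPM. Cep126, a centrosomal protein, differed by -6.18 ± 0.56, and the kinase Sbk1 by -3.67 ± 0.32. Atl2, which shapes the endoplasmic reticulum, differed by -1.72 ± 0.14, and Fkbp4, a cochaperone of steroid receptors, by -1.99 ± 0.18. The adjusted p values of these 6 differences ran from 2.09e-06 to 1.49e-05.

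**Figure D2:**
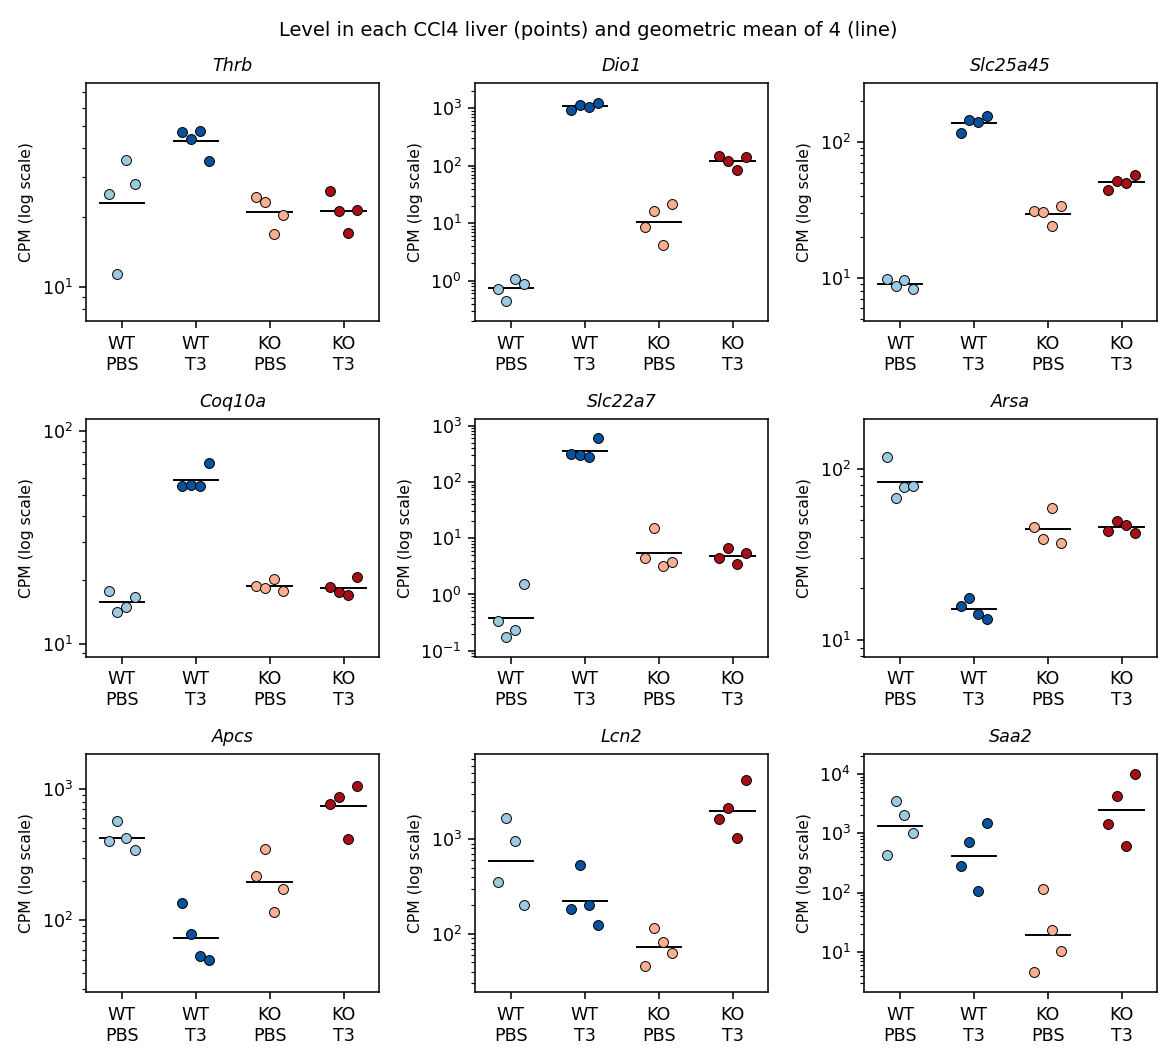
CPM (log axis) of 9 genes in each of the 16 CCl4 livers, as points, with a line at the geometric mean of the 4 livers of each group (WT, wild type; KO, Thrb knockout). Dio1, Slc25a45, Coq10a and Slc22a7 are highest in wild-type T3 livers, Arsa is lowest there, and Lcn2 and Saa2 are lowest in knockout PBS livers.

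Among genes with a higher response in knockouts, Arsa had the smallest adjusted p (ENSMUSG00000022620, chromosome 15, 89472476 to 89477425); it encodes the lysosomal enzyme arylsulfatase A. Wild-type livers held 117, 67.5, 78.4 and 79.1 CPM on PBS and 15.7, 17.6, 14.1 and 13.3 on T3, and knockouts 45.5, 39, 58.9 and 36.9 on PBS and 43.4, 49.6, 46.7 and 42.2 on T3. The knockout groups overlapped each other and lay between the wild-type groups. Arsa fell with T3 in wild-type livers, with a response of -2.49 ± 0.18, the knockout response was 0.01 ± 0.17, and the difference was 2.50 ± 0.25 (adjusted p = 2.99e-05).

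Apcs, the acute-phase protein serum amyloid P, moved in opposite directions (ENSMUSG00000026542, chromosome 1, 172893961 to 172895041). It measured 404, 565, 423 and 341 CPM in wild-type PBS livers and 136, 79, 53.3 and 49.7 on T3, but 219, 348, 115 and 172 in knockout PBS livers and 772, 864, 416 and 1050 on T3. Within each genotype the PBS and T3 livers did not overlap. The response was -2.44 ± 0.39 in wild-type mice (adjusted p = 2.69e-04) and 1.86 ± 0.38 in knockouts (adjusted p = 0.031), a difference of 4.31 ± 0.54 (adjusted p = 1.90e-04).

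Cyb561, a membrane cytochrome that moves electrons from ascorbate, and Loxl4, a lysyl oxidase that cross-links collagen, also fell with T3 in wild-type mice and rose in knockouts. For Cyb561 the responses were -0.85 ± 0.21 and 1.47 ± 0.22, and for Loxl4 -1.96 ± 0.37 and 1.74 ± 0.35. The other 6 of these 10 genes fell in wild-type livers with no called response in knockouts. They were Coq8b, needed for coenzyme Q synthesis (2.31 ± 0.28), the villin relative Vill (2.50 ± 0.31), the adhesion molecule Alcam (1.56 ± 0.20), the microtubule linker Clip2 (2.36 ± 0.31), the transcription factor Sox12 (2.28 ± 0.31) and Prelid2, of a family of mitochondrial lipid carriers (3.76 ± 0.51).

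The largest fitted differences belonged to genes that were close to 0 in at least 1 group, so levels are given. For Mup-ps13 and Npy these are levels of wild-type livers alone, and for Sult2a5 only fitted responses are given. Wfdc16 had 0 counts in the 4 wild-type PBS livers, 15.1, 27.1, 17.3 and 39.9 CPM on T3, and a total of 4 and 1 counts over the knockout PBS and T3 groups. Elovl3, an elongase of very long fatty acids, had 1 count over the wild-type PBS livers, 7.72, 8.36, 7.45 and 6.66 CPM on T3, and 10 and 0 counts over the knockout groups. Mup-ps13, a pseudogene of the major urinary proteins, had 0 counts in wild-type PBS livers and 9.47, 11.4, 14.4 and 17.1 CPM on T3. Wfdc16 and Elovl3 were thus present in the wild-type T3 livers and at or near the limit of detection elsewhere. Mup copies are near identical, so reads may be split among them.

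The sulfotransferases Sult2a1 and Sult2a5 are close paralogs and therefore uncertain. Levels of Sult2a1 showed another order. Sult2a1 measured 0.0427, 0, 0.0768 and 0.0862 CPM in wild-type PBS livers and 43.6, 7.36, 15.4 and 14.7 on T3, but 293, 175, 19.5 and 186 in knockout PBS livers and 194, 10.7, 52.7 and 86.8 on T3. On PBS the knockouts were higher than wild-type mice by 11.50 ± 1.35 (adjusted p = 0.00128), and the knockout groups overlapped. Sult2a5 rose with T3 in wild-type mice by 5.55 ± 1.14 and the knockout response was -3.92 ± 1.00 (adjusted p = 0.0823). At the other end, Npy, the peptide neuropeptide Y, measured 11.8, 41.8, 0.96 and 0.0431 CPM in wild-type PBS livers and had 2 counts over the wild-type T3 livers, and its call was lost without knockout T3 replicate 3 or wild-type T3 replicate 3.

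**Figure D3:**
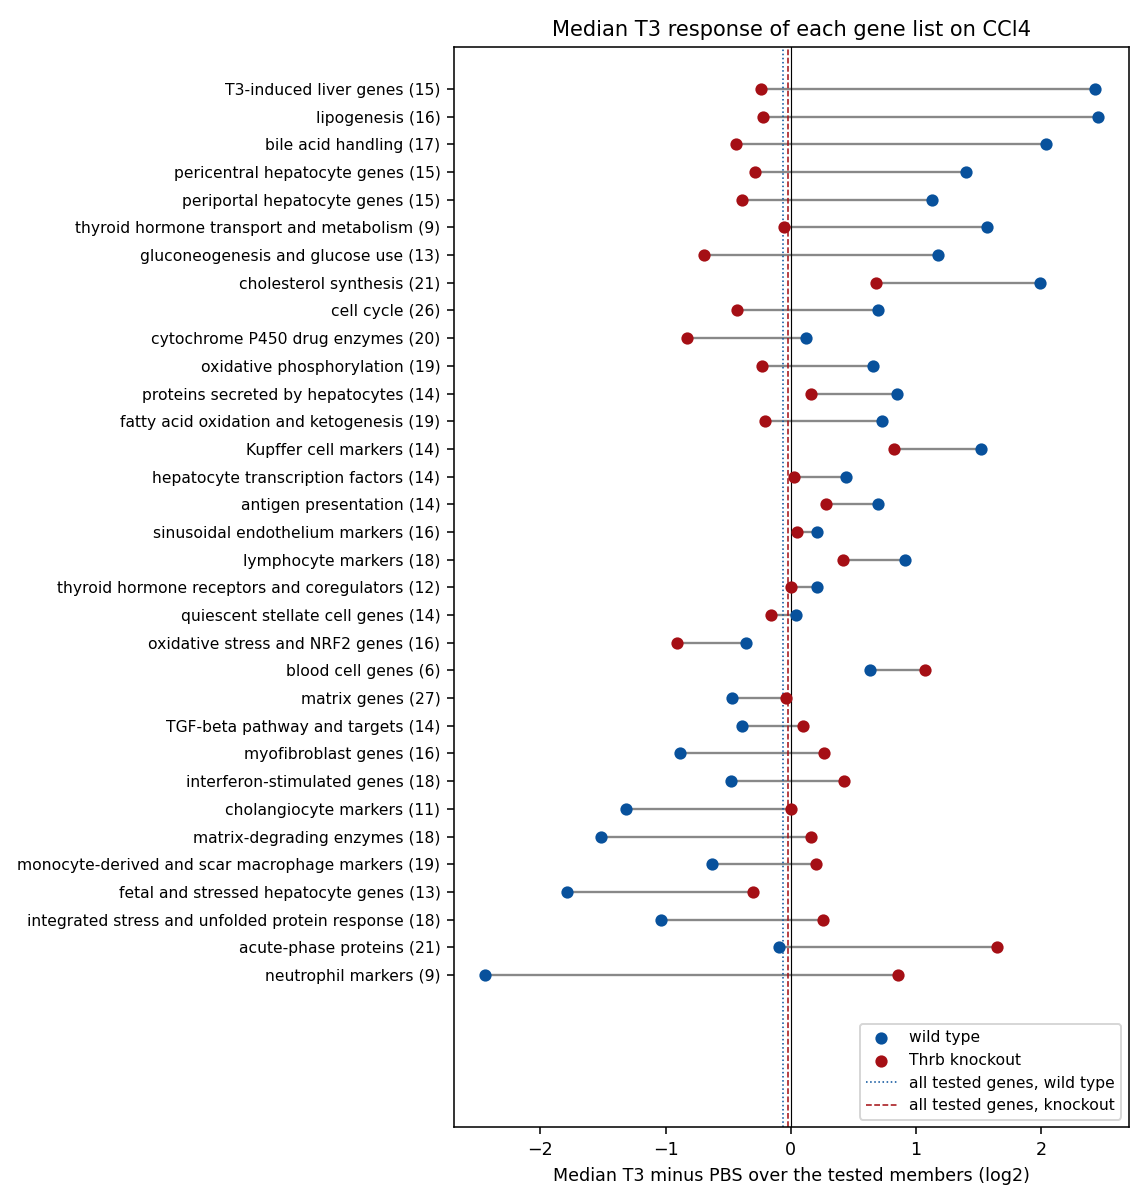
For each gene list (tested members in brackets), the median T3 minus PBS difference (log2) over its members in wild-type (blue) and knockout (red) CCl4 livers, ordered by the median genotype difference; vertical lines mark the medians over all 15073 tested genes, -0.06 and -0.02. Lipogenesis, bile acid handling and oxidative phosphorylation have wild-type medians above 0 and knockout medians below 0, cholesterol synthesis has both above 0, and the neutrophil list has a wild-type median below 0 and a knockout median above 0.

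**Figure D4:**
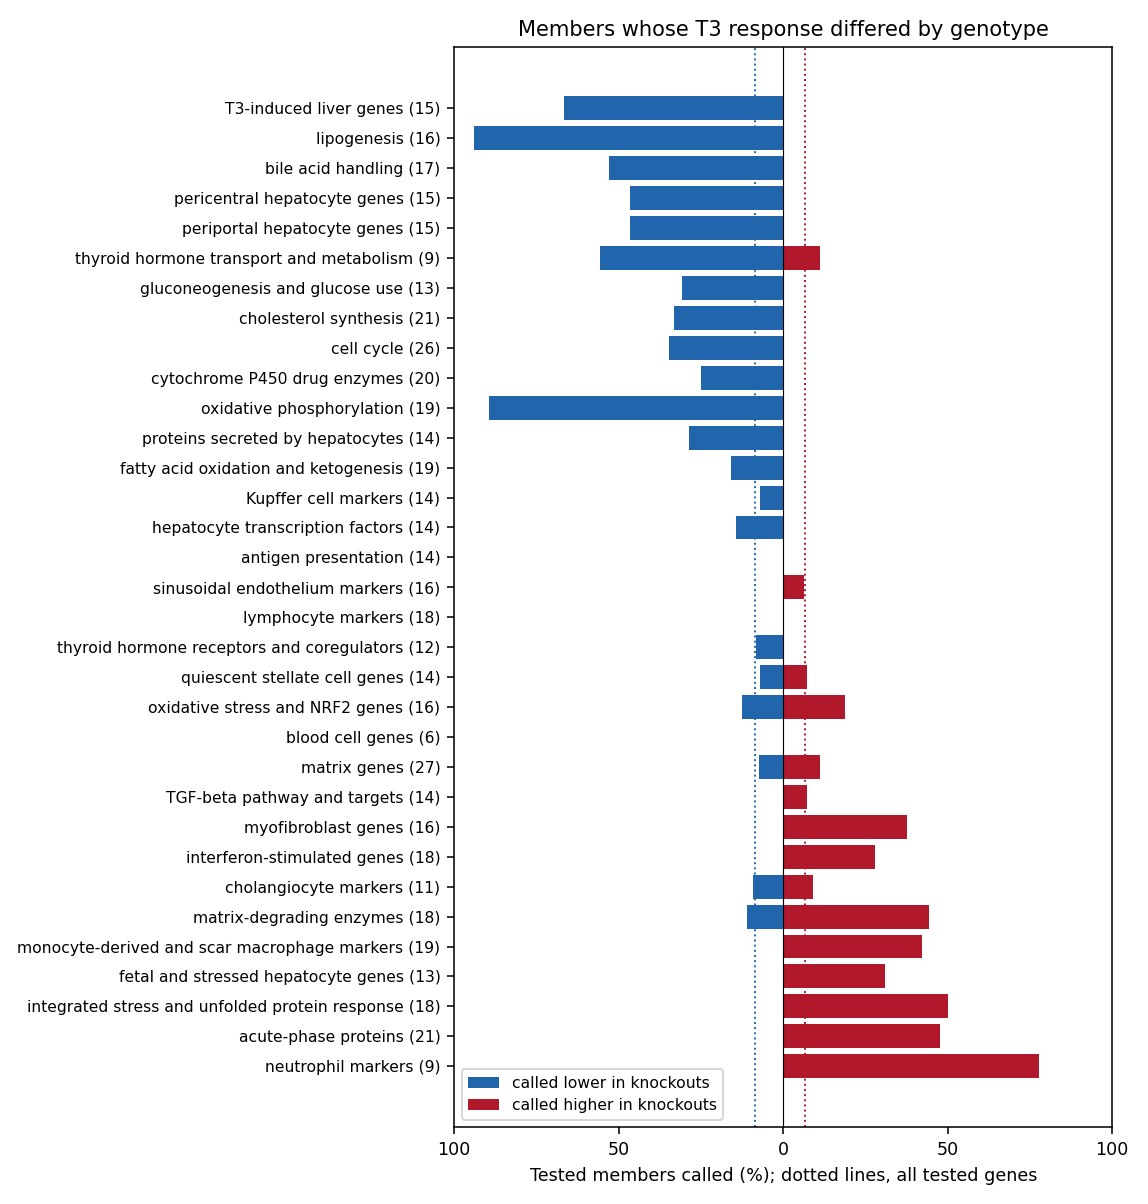
Share of each list's tested members (%) with a lower (blue, to the left) or higher (red, to the right) T3 response in knockouts; dotted lines mark the shares over all tested genes, 8.5% and 6.76%. Lipogenesis and oxidative phosphorylation reach 93.8% and 89.5% to the left, and neutrophil markers 77.8% to the right.

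The receptor and coregulator list held 12 tested genes, of which only Rxra, the retinoid X receptor that pairs with thyroid hormone receptors, had a lower response in knockouts. That is 8.33% of the list, near the 8.5% of all genes. For every list below, the shares over all genes were 8.5% with a lower and 6.76% with a higher response. With T3, 17.6% of all genes rose and 18% fell in wild-type livers, and 0.71% rose and 0.106% fell in knockouts. Rxra measured 191, 160, 185 and 290 CPM in wild-type PBS livers and 415, 519, 435 and 333 on T3, and 296, 374, 255 and 335 and 332, 377, 282 and 401 in knockouts. The wild-type groups did not overlap and the knockout groups did. Its difference was -0.90 ± 0.28 (adjusted p = 0.0401), lost without any 1 of 12 libraries and with total-count scaling, under which the median of the list also changed sign.

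Of 9 tested genes that carry, take up or modify thyroid hormone, 5 had a lower and 1 a higher response in knockouts. The lower ones included Dio1 and Sult1a1, a sulfotransferase that inactivates iodothyronines, which rose by 2.16 ± 0.21 in wild-type livers with a knockout response of 0.44 ± 0.21 (difference -1.72 ± 0.29, adjusted p = 0.00154). The other 3 were the transporter Slc16a10 (MCT10) with -1.72 ± 0.30, Ugt1a1, a glucuronosyltransferase, with -1.83 ± 0.34, and the transporter Slc17a4 with -2.64 ± 0.61 (adjusted p = 0.00171, 0.00279 and 0.00992). Slc16a10 measured 82.9, 97.5, 60.8 and 79.2 CPM in wild-type PBS livers and 257, 231, 220 and 308 on T3, and 90.9, 88, 44.5 and 65.6 and 56.9, 67, 71.8 and 83.3 in knockouts. For each of these 3 the wild-type T3 livers lay above the other 12. The higher one was Serpina7, thyroxine-binding globulin of the blood (ENSMUSG00000031271, chromosome X, 139079257 to 139085236). It measured 1450, 822, 1710 and 749 CPM in wild-type PBS livers and 53.2, 28.9, 14.6 and 4.21 on T3, against 794, 663, 271 and 469 in knockout PBS livers and 710, 494, 409 and 640 on T3. The wild-type T3 livers were the lowest and did not overlap any other group. Serpina7 fell in wild-type mice, with a response of -5.55 ± 0.65, and the difference was 5.58 ± 0.81 (adjusted p = 4.69e-04).

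Among 15 known T3-induced liver genes, 10 had a lower response in knockouts and 0 a higher one, with a median difference of -2.63 against 0.06 for all genes. The median genotype difference on PBS was 1.04, against -0.02 for all genes. In wild-type mice 9 rose with T3, and in knockouts 2 rose. Cyp17a1, a steroid hydroxylase, was 1 of these 2. It measured 11.5, 5.68, 6.57 and 4.78 CPM in wild-type PBS livers and 902, 1080, 1280 and 1730 on T3, and 31.7, 26.8, 26.4 and 68.4 and 183, 155, 122 and 188 in knockouts. The 4 groups were separate, in the order seen for Dio1. Its responses were 7.45 ± 0.43 and 2.08 ± 0.34, a difference of -5.37 ± 0.49 (adjusted p = 1.52e-05). Gpd2, the mitochondrial glycerol phosphate dehydrogenase, rose by 2.90 ± 0.21 in wild-type livers with a knockout response of -0.24 ± 0.20, a difference of -3.14 ± 0.29 (adjusted p = 1.52e-05).

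Lipogenesis had the highest share of lower responses, 15 of 16 tested genes, with a median difference of -2.63. On PBS the list's median genotype difference was 0.97. In wild-type livers 15 rose with T3. In knockouts 0 rose by edgeR or by DESeq2, an alternative count test, and 1 had an unadjusted p under 0.05 in either direction. The median response there was -0.22. Thrsp (Spot 14), a classic T3 target that promotes fatty acid synthesis, measured 20.1, 7.04, 13.7 and 14 CPM in wild-type PBS livers and 1310, 739, 844 and 1870 on T3 (ENSMUSG00000035686, chromosome 7, 97412938 to 97417730). Knockouts showed 20.1, 25.8, 26.8 and 76.6 CPM on PBS and 19.8, 30.2, 19.7 and 46.2 on T3. Levels in the wild-type T3 livers lay above those in the other 12, and the knockout groups overlapped. Its difference was -6.81 ± 0.68 (adjusted p = 3.10e-05). Me1, malic enzyme, which supplies NADPH, differed by -3.56 ± 0.45, and the elongase Elovl6 by -3.02 ± 0.40, with adjusted p values of 1.90e-04 and 2.54e-04.

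In cholesterol synthesis 20 of 21 genes rose in wild-type livers, and 7 had a lower response in knockouts and 0 a higher one. The median response was 1.99 in wild-type mice and 0.68 in knockouts. In knockouts 0 genes rose by edgeR or DESeq2 and 4 had an unadjusted p under 0.05 in either direction. Sc5d, a late enzyme of the pathway, measured 269, 107, 277 and 226 CPM in wild-type PBS livers and 1880, 1160, 1350 and 1870 on T3, and 375, 614, 261 and 759 and 759, 545, 383 and 616 in knockouts. As for Thrsp, the wild-type T3 livers lay above the other 12. It differed by -2.64 ± 0.49 (adjusted p = 0.0027) and the kinase Pmvk by -2.52 ± 0.56 (adjusted p = 0.00786). The list's count of 7 was 4 with total-count scaling. It moved to between 2 and 4 without any 1 of 11 libraries, the lowest without knockout PBS replicate 2, knockout T3 replicate 2 or knockout T3 replicate 3, and to 15 without wild-type PBS replicate 3.

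In bile acid handling, 9 of 17 tested genes had a lower response in knockouts and 0 a higher one. Cyp7a1, the rate-limiting enzyme of bile acid synthesis, measured 3.29, 0.352, 0.154 and 15.5 CPM in wild-type PBS livers and 221, 232, 235 and 256 on T3 (ENSMUSG00000028240, chromosome 4, 6265612 to 6275633). Knockouts had 61, 38.4, 0.236 and 25.1 CPM on PBS and 3.77, 4.04, 1.75 and 1.14 on T3. Wild-type T3 livers were close together and above the other 12, while both PBS groups spread widely. It rose by 5.61 ± 1.23 in wild-type mice, the knockout response was -3.53 ± 1.16 (adjusted p = 0.18), and the difference was -9.14 ± 1.68 (adjusted p = 0.00259). Cyp7b1 and Cyp27a1, enzymes of the alternative route, differed by -3.36 ± 0.54 and -2.97 ± 0.49, with adjusted p values of 0.00102 and 0.00131.

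The subunits of oxidative phosphorylation rose together in wild-type livers. All 19 tested genes rose with T3 in wild-type livers. In knockouts 0 rose by edgeR or DESeq2, and 6 were at an unadjusted p under 0.05 in either direction, with a median response of -0.23. The response was lower in knockouts for 17 of them. Their median difference was -0.99. Cyc1, cytochrome c1 of complex III, measured 134, 144, 127 and 160 CPM in wild-type PBS livers and 300, 260, 262 and 306 on T3, and 170, 178, 148 and 208 and 143, 140, 139 and 151 in knockouts. Here again the wild-type T3 livers lay above the other 12. The difference was -1.29 ± 0.17 for Cyc1, -1.38 ± 0.20 for Atp5a1, the alpha subunit of ATP synthase, and -1.03 ± 0.15 for Ndufb5 of complex I, with adjusted p values of 2.61e-04, 4.46e-04 and 6.14e-04. With total-count scaling 10 of the 19 rose in wild-type livers and 14 had a lower response in knockouts.

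Fatty acid oxidation and ketogenesis gave 3 lower responses of 19 (15.8%), and glucose metabolism 4 of 13 (30.8%), beside 8.5% of all genes. Both counts moved with single libraries. Fatty acid oxidation gave 1 without any 1 of 7 libraries, 5 without wild-type T3 replicate 4, 9 without knockout PBS replicate 3 and 10 without wild-type PBS replicate 4. Glucose metabolism gave 2 without any 1 of 11 libraries and 8 without wild-type PBS replicate 4. Without both libraries farthest from their groups the counts were 8 and 7. Acaa1b, a peroxisomal thiolase, differed by -3.59 ± 0.85 (adjusted p = 0.011), with responses of 1.53 ± 0.60 in wild-type mice and -2.06 ± 0.61 in knockouts that did not pass the test. Hadh and Acadvl, mitochondrial enzymes of the same route, differed by -1.79 ± 0.51 and -0.81 ± 0.26 (adjusted p = 0.0264 and 0.0453), calls lost without any 1 of 7 and of 12 libraries. The Acadvl call was also lost with total-count scaling, no filter on low counts or a block on replicate number. Pygl, liver glycogen phosphorylase, differed by -3.36 ± 0.67 (adjusted p = 0.00397), and the liver pyruvate kinase Pklr by -1.92 ± 0.44 (adjusted p = 0.00916). Pfkfb1, which sets the level of a glycolysis activator, rose in wild-type livers by 2.20 ± 0.48 and differed by -2.03 ± 0.65 (adjusted p = 0.0467). Its call was lost without any 1 of 12 libraries, with total-count scaling and with no filter on low counts.

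Genes of both ends of the liver lobule took part. A lower response in knockouts was called for 7 of 15 pericentral and 7 of 15 periportal genes, and a higher one for 0 of either list by edgeR (1 pericentral gene without wild-type PBS replicate 2 or knockout PBS replicate 1). Glul, the glutamine synthetase of the last hepatocytes around the central vein, measured 40.7, 84, 28.8 and 66 CPM in wild-type PBS livers and 569, 656, 791 and 1060 on T3 (ENSMUSG00000026473, chromosome 1, 153899944 to 153909723). Knockouts held 94.8, 76.7, 55.5 and 104 CPM on PBS and 91, 94.9, 60.2 and 119 on T3. The wild-type T3 livers lay above the other 12, which overlapped. Its difference was -3.67 ± 0.46 (adjusted p = 1.76e-04), and Rhbg, an ammonium transporter of the same cells, differed by -3.75 ± 0.75 (adjusted p = 0.00415).

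On the periportal side, Cps1, the first enzyme of the urea cycle, measured 1730, 1320, 1930 and 2700 CPM in wild-type PBS livers and 4500, 3170, 3460 and 3740 on T3, and 3590, 3540, 1900 and 3510 and 1760, 1500, 1150 and 1340 in knockouts. It rose with T3 in wild-type livers by 0.95 ± 0.25 (adjusted p = 0.00794) and fell in knockouts, with a response of -1.12 ± 0.25 (adjusted p = 0.0456). PBS and T3 livers did not overlap in either genotype, and the difference was -2.08 ± 0.35 (adjusted p = 0.00141). Arg1, arginase of the urea cycle, differed by -2.11 ± 0.37 (adjusted p = 0.00194), and Sult5a1, a sulfotransferase, by -8.35 ± 1.01 (adjusted p = 1.51e-04). The periportal count was 11 of 15 without knockout PBS replicate 3 or wild-type PBS replicate 4, and 4 without knockout PBS replicate 2, knockout PBS replicate 4 or knockout T3 replicate 3.

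Drug-metabolizing cytochromes P450 gave 5 lower responses of 20 (25%, beside 8.5% of all genes) and 0 higher ones by edgeR. There were 8 lower without wild-type PBS replicate 4 and 1 higher without wild-type T3 replicate 1. Cyp3a44 rose in both genotypes, by 9.76 ± 0.68 in wild-type mice and 3.57 ± 0.53 in knockouts, a difference of -6.18 ± 0.74 (adjusted p = 1.40e-04). Its neighbour Cyp3a41a, with 3 counts over the wild-type PBS livers, measured 19, 72.6, 45.2 and 36.9 CPM in wild-type T3 livers and 3.35, 4.75, 1.47 and 3.83 in knockout T3 livers. Cyp2c29 differed by -2.72 ± 0.60 (adjusted p = 0.00751), Cyp2a4 by -2.04 ± 0.48 (adjusted p = 0.0106) and Cyp2c55 by -4.14 ± 1.05 (adjusted p = 0.0157). Cyp2c55 measured 3.16, 1.23, 2.84 and 18.7 CPM in wild-type PBS livers and 16.9, 10.2, 13.6 and 11.3 on T3, and 7.88, 6.28, 1.73 and 15.7 and 1.51, 0.475, 0.755 and 0.806 in knockouts. The knockout T3 livers lay below the knockout PBS livers, and the wild-type groups overlapped. Members of these families are near-identical copies, so their separate values are uncertain. In knockouts 0 of the 20 fell with T3 by edgeR, 5 fell by DESeq2 and 12 had an unadjusted p under 0.05 in either direction. With 1 library left out edgeR called up to 3 falls, the most without wild-type PBS replicate 4, and without both libraries farthest from their groups 6.

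A lower response in knockouts was found for 4 of 14 proteins secreted by hepatocytes and 2 of 14 hepatocyte transcription factors. These are shares of 28.6% and 14.3%, beside 8.5% of all genes. Apoc3, an apolipoprotein that slows triglyceride clearance, measured 752, 682, 682 and 911 CPM in wild-type PBS livers and 2920, 3950, 3770 and 4970 on T3, and 1090, 1830, 936 and 1620 and 1460, 1390, 1150 and 1790 in knockouts. All 4 wild-type T3 livers lay above the other 12, and the difference was -2.28 ± 0.33 (adjusted p = 4.69e-04). Serpina1a, an alpha-1-antitrypsin with near copies, differed by -1.47 ± 0.35 (adjusted p = 0.0112), Serpina6, corticosteroid-binding globulin, by -4.90 ± 1.08 (adjusted p = 0.00771), and Rbp4, the retinol carrier of the blood, by -1.13 ± 0.30 (adjusted p = 0.0206). The orphan receptor Esrrg differed by -6.24 ± 0.64 (adjusted p = 4.21e-05) and Foxa2 by -0.94 ± 0.26 (adjusted p = 0.0241). The Foxa2 call was lost without wild-type T3 replicate 2 or knockout PBS replicate 2, and with total-count scaling. The secreted proteins gave 9 without knockout PBS replicate 3 and 7 without wild-type PBS replicate 4, and the transcription factors 1 without wild-type T3 replicate 2 or knockout PBS replicate 2. Without both farthest libraries the counts were 9 of 14 and 5 of 14.

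Cell cycle genes gave 9 lower responses of 26 and 0 higher ones, and 10 rose in wild-type livers. Their sum was 156.9 to 270.9 CPM on PBS and 409.3 to 516.9 on T3 in wild-type mice, and 440.5 to 572.4 and 360.6 to 411.5 in knockouts. Knockout PBS livers thus lay above the wild-type PBS livers and overlapped the wild-type T3 livers. The median genotype difference on PBS was 0.54. In knockouts 0 rose by edgeR or DESeq2, and 6 had an unadjusted p under 0.05 in either direction. The median response there was -0.43, and the sums on T3 lay below those on PBS without overlap. Rrm2, a ribonucleotide reductase subunit of S phase, measured 5.03, 7.79, 5.65 and 6.64 CPM in wild-type PBS livers and 19.9, 34.3, 31.4 and 33.7 on T3, and 10.1, 6.38, 11.7 and 10.3 and 6.13, 6.85, 7.04 and 4.5 in knockouts. On T3 the wild-type livers were the highest, and the difference was -2.90 ± 0.32 (adjusted p = 6.54e-05). Ccnd1, cyclin D1, differed by -2.02 ± 0.55 (adjusted p = 0.0225). Mcm5, of the replicative helicase, differed by -2.04 ± 0.56 (adjusted p = 0.0225), a call lost without knockout T3 replicate 3, wild-type T3 replicate 2 or knockout PBS replicate 4. The count of 9 was 3 with total-count scaling and ran from 2, without wild-type T3 replicate 2 or knockout PBS replicate 4, to 13, without wild-type PBS replicate 4. It was 5 or less without any 1 of 7 libraries. The number that rose in wild-type livers was 5 without wild-type T3 replicate 2.

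Of 13 genes of fetal or stressed hepatocytes, 4 had a higher response in knockouts and 8 fell with T3 in wild-type mice. In knockouts 0 changed by edgeR, 1 fell by DESeq2 and 3 had an unadjusted p under 0.05 in either direction. Sox9, a progenitor and bile duct factor, measured 32.4, 29.5, 55.7 and 14.2 CPM in wild-type PBS livers and 6.97, 6.68, 5.41 and 12.8 on T3, and 18.2, 19, 18.9 and 13.1 and 19.7, 33.4, 37.9 and 27.7 in knockouts. All wild-type T3 livers lay below the other 12. It differed by 2.83 ± 0.49 (adjusted p = 0.00172), and Afp, alpha-fetoprotein, by 2.0 ± 0.54 (adjusted p = 0.021), a call lost without knockout T3 replicate 3. Gdf15, a stress hormone, fell in wild-type livers, with a response of -1.78 ± 0.30, and differed by 1.48 ± 0.41 (adjusted p = 0.0245), lost without any 1 of 5 libraries. The fourth, Trib3, is given with the next list. Without knockout T3 replicate 3 the list's count was 2.

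In the integrated stress and unfolded protein response, 9 of 18 genes had a higher response in knockouts, 10 fell in wild-type livers and 1 rose in knockouts (0 without any 1 of 8 libraries). Hspa5 (BiP), the main chaperone of the endoplasmic reticulum, measured 3620, 4460, 2480 and 3010 CPM in wild-type PBS livers and 1370, 1250, 1470 and 779 on T3, and 2570, 2270, 1590 and 1820 and 1890, 3890, 3020 and 4450 in knockouts. On T3 the wild-type livers were the lowest, and the difference was 2.16 ± 0.40 (adjusted p = 0.00259). Trib3, a target of this response, fell in wild-type mice, with a response of -4.71 ± 0.61 and a difference of 3.54 ± 0.76 (adjusted p = 0.00651). Sdf2l1, another chaperone partner, rose in knockouts by 1.48 ± 0.32, with a difference of 2.18 ± 0.44 (adjusted p = 0.00456).

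Acute-phase proteins, which hepatocytes make in inflammation, were the list with the most rises in knockouts, 14 of 21 genes. A higher response in knockouts was called for 10 of the 21 and a lower one for 0, with a median difference of 1.55. The median response was 1.65 in knockouts, while in wild-type livers 2 genes fell, Apcs and Saa3, and the median was -0.09. With total-count scaling 18 of the 21 differed, and the number rising in knockouts was 2 without knockout PBS replicate 1, the lowest with 1 library left out. It was 9 or less without any 1 of 6 libraries, among them knockout PBS replicate 3 with 7.

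Lcn2, a siderophore-binding protein of the acute phase and of neutrophils, measured 352, 1690, 963 and 201 CPM in wild-type PBS livers and 183, 532, 202 and 124 on T3 (ENSMUSG00000026822, chromosome 2, 32384633 to 32388252). Knockouts held 45.5, 116, 82.8 and 63 CPM on PBS and 1640, 2130, 1020 and 4210 on T3. The knockout PBS livers were the lowest of the 16, and the wild-type groups overlapped. It rose in knockouts by 4.87 ± 0.72 (adjusted p = 0.00596) with a wild-type response of -1.62 ± 0.62 (adjusted p = 0.0539), a difference of 6.50 ± 0.94 (adjusted p = 4.72e-04). On PBS the level was already lower in knockouts, by a log2 difference of -3.39 ± 0.67 (adjusted p = 0.0472).

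The serum amyloid A genes followed the same order. Saa2 measured 435, 3470, 2030 and 1020 CPM in wild-type PBS livers and 281, 702, 107 and 1500 on T3, and 4.65, 117, 23.8 and 10.4 in knockout PBS livers and 1460, 4260, 609 and 9800 on T3. The knockout groups were separate, the wild-type groups overlapped, and 3 of the 4 knockout PBS livers lay below every other liver. The difference was 8.13 ± 1.62 for Saa2, 7.37 ± 1.38 for Saa1 and 5.21 ± 0.72 for Saa3, with adjusted p values of 0.00404, 0.00279 and 3.65e-04. Saa1 and Saa2 are near-identical neighbours, so reads may be split between them.

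Of 16 oxidative stress and NRF2 genes, 3 had a higher and 2 a lower response in knockouts, the lower count being 1 without any 1 of 6 libraries. These are shares of 18.8% and 12.5%, beside 6.76% and 8.5% of all genes. Mt2 and Mt1, metal-binding metallothioneins, fell in wild-type livers, with responses of -5.61 ± 0.91 and -5.02 ± 0.96 and differences of 7.62 ± 1.18 and 6.28 ± 1.24 (adjusted p = 7.98e-04 and 0.00394). Mt2 measured 522, 2590, 400 and 127 CPM in wild-type PBS livers and 39.2, 19.5, 6.8 and 9.18 on T3, against 82.2, 116, 143 and 37.6 and 229, 270, 316 and 715 in knockouts. The wild-type groups were separate, as were the knockout groups. Wild-type PBS replicate 2 was the highest liver for both genes. The third higher one, the cystine transporter Slc7a11, fell in wild-type livers, with a response of -3.46 ± 0.62 and a difference of 2.52 ± 0.81 (adjusted p = 0.0465), lost without any 1 of 12 libraries. On the lower side, the antioxidant enzymes Gpx2 and Gstm3 differed by -2.84 ± 0.75 and -3.50 ± 1.00 (adjusted p = 0.0193 and 0.0274), and the call for Gstm3 was lost without any 1 of 6 libraries.

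Of 27 matrix genes, 3 had a higher and 2 a lower response in knockouts, shares of 11.1% and 7.41% beside 6.76% and 8.5% of all genes. The higher ones were Nid1, nidogen of basement membranes (2.57 ± 0.60), Loxl2, a collagen cross-linker (1.46 ± 0.35), and Col4a1, a chain of basement membrane collagen (1.31 ± 0.34). Nid1 measured 134, 243, 315 and 77.1 CPM in wild-type PBS livers and 55.4, 61.3, 63.4 and 51.2 on T3, and 121, 112, 383 and 117 and 373, 320, 384 and 237 in knockouts. Wild-type livers on T3 were the lowest, and the knockout groups overlapped. The lower ones, Col15a1 (-1.63 ± 0.45) and Col12a1 (-1.35 ± 0.40), rose with T3 in wild-type livers, and their calls were lost without any 1 of 2 libraries, knockout T3 replicate 3 or knockout PBS replicate 4, and of 6 libraries. The higher count was 5 without knockout T3 replicate 4 and 6 without wild-type PBS replicate 3, and the lower one was 1 without any 1 of 8 libraries. With total-count scaling the counts were 5 higher and 1 lower.

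Of 16 myofibroblast genes, 6 had a higher response in knockouts and 7 fell with T3 in wild-type livers. The higher share was 37.5%, beside 6.76% of all genes, and 18% of all genes fell in wild-type livers. Timp1, an inhibitor of matrix metalloproteinases, measured 24.1, 26.7, 8.49 and 6.77 CPM in wild-type PBS livers and 1.8, 2.56, 1.69 and 1.99 on T3, and 4.57, 17, 7.97 and 6.26 and 13, 10.6, 14.2 and 11.2 in knockouts. The wild-type T3 livers lay below the other 12, and the difference was 3.50 ± 0.63 (adjusted p = 0.0023). Tagln, a smooth muscle actin-binding protein, differed by 2.38 ± 0.59 (adjusted p = 0.0141) and S100a6 by 2.45 ± 0.54 (adjusted p = 0.00728). The count of 6 was 3 without any 1 of 10 libraries, wild-type PBS replicate 2 among them. Summed over 6 markers of stellate cells and myofibroblasts, levels were 132 to 232 CPM on PBS and 113 to 185 on T3 in wild-type mice, and 157 to 220 and 114 to 259 in knockouts; their part in these results was not tested. In bulk liver, fewer cells of a type and less RNA per cell cannot be told apart.

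The 14 quiescent stellate cell genes gave 1 lower response and 1 higher, the latter the filament protein Nes (1.74 ± 0.43, adjusted p = 0.0136). Each is a share of 7.14%, near the 8.5% lower and 6.76% higher of all genes. The lower count was 0 without any 1 of 8 libraries, 2 without knockout PBS replicate 3 and 3 without wild-type PBS replicate 4. Their list median changed sign with total-count scaling. Among 14 genes of the TGF-beta pathway 1 differed, with a higher response in knockouts (7.14%, near the 6.76% of all genes). The pathway's count was 3 higher and 1 lower without knockout PBS replicate 3, 2 higher without wild-type PBS replicate 2 or 4, 3 higher with total-count scaling and 4 higher and 1 lower without both farthest libraries.

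Of 18 matrix-degrading enzymes, 8 had a higher and 2 a lower response in knockouts, and 10 fell with T3 in wild-type livers. The higher share was 44.4%, beside 6.76% of all genes. The lower share was 11.1%, near the 8.5% of all genes, and 18% of all genes fell in wild-type livers. Mmp13, a collagenase, measured 7.21, 4.18, 6.61 and 1.55 CPM in wild-type PBS livers and 2.06, 0.437, 1.34 and 0.877 on T3, and 2.09, 5.3, 1.41 and 1.25 and 10.2, 9.84, 8.03 and 4.77 in knockouts. The PBS and T3 livers overlapped in both genotypes, and the T3 groups were separate. Its difference was 3.75 ± 0.77 (adjusted p = 0.00472). Mmp12, the macrophage elastase, measured 37.7, 35.4, 31.8 and 29.7 CPM in wild-type PBS livers and 11.1, 7.55, 8.66 and 11.9 on T3, and all 8 knockout livers lay between 19.2 and 68.4 CPM. It differed by 2.05 ± 0.42 (adjusted p = 0.00491), with the wild-type T3 livers the lowest. The lower ones were Mmp19 (-1.17 ± 0.23) and the lysosomal protease Ctsd (-0.96 ± 0.23), which rose in wild-type livers.

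Kupffer cell markers, of the resident liver macrophages, rose in wild-type livers in 12 of 14 cases, and 1 gene differed between the responses. That is a lower response for 7.14% of the list, near the 8.5% of all genes. In knockouts 0 rose by edgeR, 5 rose by DESeq2 and 9 had an unadjusted p under 0.05 in either direction. The gene that differed was Timd4, a receptor for dying cells, with 2.56, 2.42, 2.61 and 3.92 CPM in wild-type PBS livers and 12.7, 21, 19.2 and 11.9 on T3, and 4.87, 4.37, 1.73 and 6.21 and 7.97, 10.2, 6.6 and 8.8 in knockouts. The T3 livers lay above the PBS livers in both genotypes. Its difference was -1.52 ± 0.44 (adjusted p = 0.0295), lost without any 1 of 9 libraries. The list's median response was 1.52 in wild-type mice and 0.82 in knockouts. The sum over 6 markers was 161 to 277 CPM on PBS and 605 to 924 on T3 in wild-type livers, and 163 to 364 and 433 to 669 in knockouts, so the T3 livers of both genotypes lay above their PBS livers. The number with a lower response was 0 without any 1 of 9 libraries and 6 without wild-type PBS replicate 4.

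Of 19 markers of monocyte-derived and scar macrophages, 8 had a higher response in knockouts and 8 fell in wild-type livers. The higher count was 5 without knockout PBS replicate 2, knockout PBS replicate 4 or knockout T3 replicate 3. Itgam (CD11b), an integrin of myeloid cells, measured 4.01, 11.5, 4.88 and 9.14 CPM in wild-type PBS livers and 2.31, 3.99, 2.6 and 2.69 on T3, and 2.74, 5.71, 5.42 and 3.85 and 8.21, 8.8, 8.07 and 7.72 in knockouts. PBS and T3 livers did not overlap in either genotype. It fell in wild-type livers (-1.35 ± 0.32), the knockout response was 0.89 ± 0.31 (adjusted p = 0.215), and the difference was 2.24 ± 0.45 (adjusted p = 0.00404). Cd14, a coreceptor for bacterial lipopolysaccharide, differed by 3.85 ± 0.83 (adjusted p = 0.00676). The sum over 6 markers was 107 to 353 CPM on PBS and 75.1 to 181 on T3 in wild-type mice, and 100 to 207 and 107 to 247 in knockouts, all overlapping.

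Neutrophil markers had the highest share of higher responses, 7 of 9 tested, with a median difference of 2.97. S100a9, an alarmin that makes up much of the neutrophil cytosol, measured 15.4, 157, 25.9 and 10.7 CPM in wild-type PBS livers and 6.17, 6.49, 4.63 and 6.08 on T3, and 5.86, 7.05, 10.1 and 12.3 and 12.9, 16.3, 12.8 and 27.9 in knockouts. Both genotypes' PBS and T3 livers were separate, and wild-type PBS replicate 2 was far above the rest. The difference was 4.15 ± 0.93 for S100a9, 4.41 ± 1.00 for its partner S100a8 and 5.14 ± 1.27 for the neutrophil collagenase Mmp8, with adjusted p values of 0.0083, 0.00859 and 0.014. Without wild-type PBS replicate 2 the count was again 7 of 9, the median was 1.74, and the number that fell in wild-type livers went from 8 to 3. The sum over 5 markers was 26.8 to 332 CPM on PBS and 19.5 to 26 on T3 in wild-type livers, and 20 to 33.4 and 36.9 to 66 in knockouts, and its part in the acute-phase and macrophage results was not tested.

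The chemokine Ccl7, which draws monocytes, measured 3.67, 50.7, 4.8 and 0.215 CPM in wild-type PBS livers and 1.1, 0.562, 0.346 and 0.76 on T3, and 1.41, 0.617, 2.12 and 0.866 and 3.92, 4.47, 5.05 and 6.04 in knockouts. The wild-type groups overlapped and the knockout groups were separate. Its difference was 6.35 ± 1.43 (adjusted p = 0.00863), with wild-type PBS replicate 2 again the highest liver.

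Interferon-stimulated genes gave 5 higher responses of 18 (27.8%, beside 6.76% of all genes). Rsad2 (viperin) fell in wild-type livers (-2.19 ± 0.35) with a difference of 2.02 ± 0.48 (adjusted p = 0.0114). The antiviral GTPase Mx2 rose in knockouts (1.15 ± 0.25) with a difference of 1.5 ± 0.35 (adjusted p = 0.00973). Cxcl10, a chemokine for T cells, differed by 2.54 ± 0.76 (adjusted p = 0.0348), a call lost without any 1 of 9 libraries. The ubiquitin-like protein Isg15 and Xaf1, an interferon-induced binding partner of XIAP, differed by 1.87 ± 0.59 and 1.10 ± 0.33 (adjusted p = 0.0453 and 0.036), lost without any 1 of 13 and of 10 libraries. The count was 2 or 3 without any 1 of 12 libraries and 11 without wild-type PBS replicate 4.

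Lymphocyte markers and antigen presentation gave 0 calls of 18 and 0 of 14 by edgeR, 1 and 2 by DESeq2, and 2 and 2 at an unadjusted p under 0.05. The values were 2.14 ± 0.76 for Cd8a, of cytotoxic T cells (adjusted p = 0.07), and -1.32 ± 0.58 for Klrb1c, of natural killer cells (adjusted p = 0.131). The class I genes H2-K1 and B2m rose in wild-type livers (0.84 ± 0.16 and 0.75 ± 0.18), and their values for the genotype difference were -0.68 ± 0.23 and -0.65 ± 0.25 (adjusted p = 0.055 and 0.0879). With 1 library left out, antigen presentation gave up to 6 lower responses, the most without wild-type PBS replicate 4, and lymphocyte markers up to 2 higher, the most without knockout PBS replicate 1.

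Cholangiocyte markers gave 1 call in each direction of 11, a share of 9.09% each, beside 8.5% lower and 6.76% higher of all genes. The lower one was Prom1, a membrane protein of progenitor cells (-2.69 ± 0.39, adjusted p = 4.69e-04), and the higher one Sox9, described above with fetal genes. The higher count was 2 without wild-type T3 replicate 4 or knockout PBS replicate 3. Of 16 markers of sinusoidal endothelium, 1 differed (6.25%, near the 6.76% of all genes with a higher response). It was Lyve1, a hyaluronan receptor (2.33 ± 0.63, adjusted p = 0.0217). Lyve1 measured 17.1, 82.2, 17.2 and 23.6 CPM in wild-type PBS livers and 6.37, 8.11, 5.76 and 8.83 on T3, with wild-type PBS replicate 2 the highest. All 8 knockout livers, between 8.85 and 22.7 CPM, lay above the wild-type T3 livers. The 6 blood cell genes gave 0 calls by edgeR, by DESeq2 and at an unadjusted p under 0.05. The values for Hbb-bs and Hbb-bt, adult beta globins, were 0.42 ± 0.55 and 0.57 ± 0.60 (adjusted p = 0.644 and 0.548).

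The same comparison was made in the 16 livers of oil-treated mice, fitted apart. There 2698 of 14770 genes differed in their T3 response between genotypes (18.3%), with 1258 higher (8.52%) and 1440 lower (9.75%) in knockouts. The mice of both comparisons are different animals. Genes that differed in the same direction in both numbered 615, which is 26.7% of the CCl4 list and 22.8% of the oil list, and 40 differed in opposite directions (1.74% and 1.48%). Of the 1281 genes with a lower response on CCl4, 460 were also lower on oil (35.9%), beside 9.75% of all genes tested there. Of the 1019 with a higher one, 155 were also higher on oil (15.2%), beside 8.52%. Some genes with a lower response were near equal in both settings: Slc25a45 differed by -3.17 ± 0.18 on CCl4 and -2.93 ± 0.30 on oil, Dio1 by -7.14 ± 0.58 and -6.54 ± 0.26, and Cyp17a1 by -5.37 ± 0.49 and -5.39 ± 0.63. Neither these nor the other shared genes were tested for equality.

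The difference between both settings was tested in 1 fit over all 32 livers. It passed for 1229 of 15599 genes (7.88%), with 544 higher (3.49%) and 685 lower (4.39%) on CCl4 than on oil. With total-count scaling 1232 were higher and 392 lower, and on oil alone 989 were higher and 1718 lower in knockouts. The 1229 became 502 without knockout PBS replicate 4 on CCl4 and 2936 without wild-type PBS replicate 4 on CCl4, the lowest and the highest of all single libraries left out. Ifngr1, a chain of the interferon gamma receptor, fell with T3 in wild-type CCl4 livers (-1.22 ± 0.17) with genotype differences of 1.69 ± 0.23 on CCl4 and -0.18 ± 0.18 on oil, a gap of 1.86 ± 0.30 (adjusted p = 0.00144). Its levels on CCl4 were 74.3, 108, 80.2 and 63.9 CPM in wild-type PBS livers and 34.9, 33.8, 36.4 and 34.8 on T3, and 53.6, 59.9, 44.7 and 37.3 and 66.5, 57.6, 76.7 and 69.9 in knockouts. Wild-type livers on T3 lay below the other 12. Golga5, a Golgi golgin, had a gap of 1.24 ± 0.19, P3h1, a prolyl hydroxylase of collagen, of 1.93 ± 0.29, and the zinc finger gene Zfp687 of 1.44 ± 0.21, with adjusted p values of 0.0011, 8.23e-04 and 8.23e-04. For P3h1 the CCl4 difference alone (0.65 ± 0.20, adjusted p = 0.0409) was lost without any 1 of 12 libraries.

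Acute-phase proteins had 11 of 21 genes with a gap. Saa2 had differences of 8.13 ± 1.62 on CCl4 and -1.34 ± 0.66 on oil, with a gap of 9.47 ± 1.76 (adjusted p = 0.00512). For Lcn2 the differences were 6.50 ± 0.94 and -0.22 ± 0.69, with a gap of 6.71 ± 1.21 (adjusted p = 0.00428), and for Saa3 5.21 ± 0.72 and 0.54 ± 0.46, with a gap of 4.67 ± 0.89 (adjusted p = 0.00614). Cytochromes P450 had 10 of 20 genes with a gap, oxidative phosphorylation 8 of 19, bile acid handling 6 of 17 and periportal genes 6 of 15. For Cyp7a1 the differences were -9.14 ± 1.68 on CCl4 and -2.49 ± 0.82 on oil, with a gap of -6.65 ± 1.79 (adjusted p = 0.0259). Cyc1 had differences of -1.29 ± 0.17 on CCl4 and -0.40 ± 0.16 on oil, with a gap of -0.90 ± 0.22 (adjusted p = 0.0205).

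Cyp2c69, whose near copies make it uncertain, differed by -3.50 ± 1.00 on CCl4 and 4.41 ± 0.48 on oil, in opposite directions, with a gap of -7.92 ± 1.15 (adjusted p = 8.23e-04), and the CCl4 call was lost without any 1 of 7 libraries. Idh2, the mitochondrial isocitrate dehydrogenase, had a gap of -1.87 ± 0.29 and Hcfc1r1, a regulator of a transcription cofactor, of -2.06 ± 0.30 (adjusted p = 0.0011 and 8.23e-04).

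**Figure D5:**
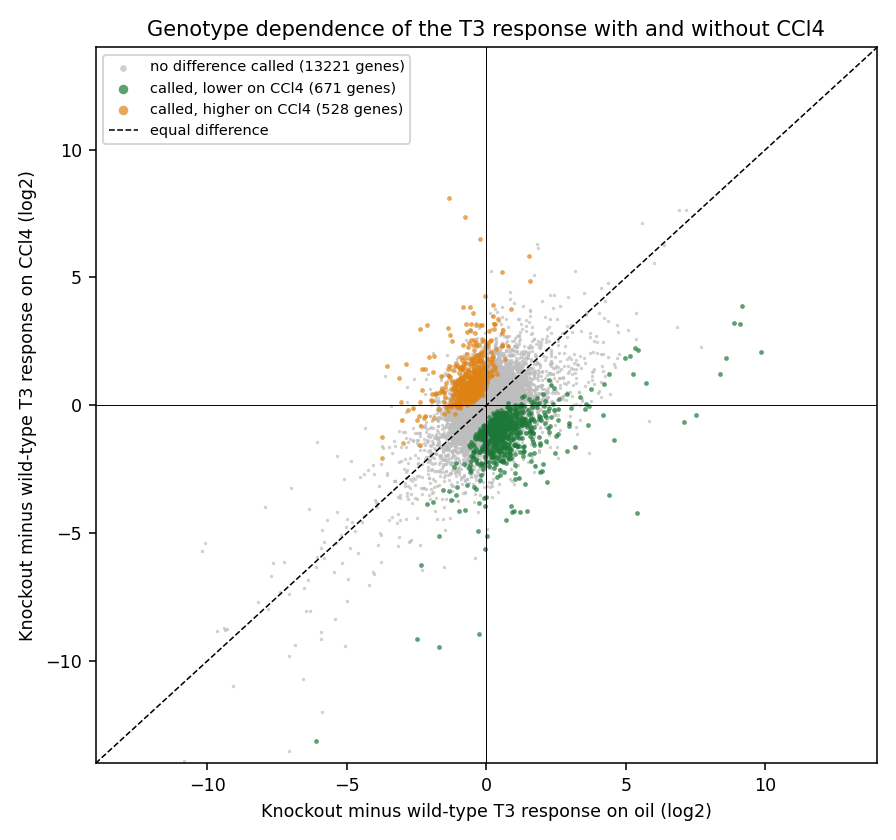
Each point is 1 gene, with the genotype difference in T3 response (log2) on oil on the horizontal axis and on CCl4 on the vertical axis; green marks 671 genes with a lower and orange 528 with a higher difference on CCl4 than on oil, among the genes tested in both separate fits, and the dashed line marks equal differences. Lcn2 and Saa2 are among the orange points with CCl4 differences above 5, with oil differences of -0.22 and -1.34.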

How the data were processed

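Liver RNA-seq counts of 16 CCl4-treated mice, 4 per group, were used, with the 16 oil-treated livers of the series for the last comparisons. Values are raw gene counts as the authors deposited them. FastQC 0.11.5, Trim Galore, cutadapt, STAR 2.7.9a and the GRCm38 build are named in the submitters' processing notes, per the labels. The sources used here do not give the counting tool, its strand setting, the annotation or which of the named Illumina TruSeq kits, with or without strand, made which library, so a gene and an overlapping antisense gene cannot be told apart. Of 52636 rows, 233 carry no symbol, and these held at most 0.0656% of any library. Gene positions are from GENCODE on GRCm38 and promoter windows from RefSeq.

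Genes passing filterByExpr (minimum count 10, minimum total 15) were fitted with edgeR 4.0.16 (R 4.3.3), TMM library sizes and quasi-likelihood F tests on 4 group means, and p values were Benjamini-Hochberg adjusted over all tested genes. Tested genes held at least 99.5% of each library. Alternatives were total-count or DESeq2 size factors, DESeq2 1.42.0, limma 3.58.1 voom with quality weights, other filters, all 32 livers in 1 fit, a block on replicate number and each library left out. Leaving out both libraries farthest from their groups was chosen after seeing the data. The procedure was tested on simulated data. Named genes were the 10 with the smallest adjusted p and the 6 with the largest fold in each direction among genes reaching 5 CPM in a group, up to 3 called members per list with up to 2 against the list's majority (2 uncalled where none was called), 4 per direction for the CCl4 and oil gap, Thrb, Thra and all genes of a count of 5 or fewer; a few genes that the rule takes are not reported here. Members of the 33 lists, from textbook knowledge, and the comparison itself were chosen with earlier results of these data known. Libraries are separate mice, but nothing in the sources says whether they shared a cage or a day.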

Additional observations from a re-analysis of the deposited data

Results flagged for a closer look

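In 44 of 528 combinations of a named gene and a group of 4 CCl4 livers, 1 liver stood apart by Dixon's test. Chance marks about 1 in 20 groups. Levels are CPM, and the range of the other 3 livers of the group follows each in brackets.

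Wild-type PBS replicate 4 was high in Slc22a7 at 1.51 (0.176 to 0.341), Hcfc1r1 at 33.4 (21.6 to 21.9) and Acaa1b at 677 (104 to 121). It also stood high in Cyp2c55 at 18.7 (1.23 to 3.16) and Cyp2c69 at 11.8 (2.22 to 2.95). The same liver had Timd4 at 3.92 (2.42 to 2.61) and H2-K1 at 952 (809 to 819). In wild-type PBS replicate 2, Mt2 at 2590 (127 to 522), S100a9 at 157 (10.7 to 25.9) and S100a8 at 112 (6.03 to 17.4) stood high. It also stood high in Ccl7 at 50.7 (0.215 to 4.8), Mmp8 at 11.4 (0.341 to 1.11) and Lyve1 at 82.2 (17.1 to 23.6). In wild-type PBS replicate 3, Elovl3 at 0.0384 (all 0), Prom1 at 23.3 (10.6 to 12.6) and Gm3776 at 34.3 (43.8 to 44.9) stood apart. Wild-type T3 replicate 4 was apart in Coq10a at 70.5 (55.5 to 56), Fndc5 at 23.6 (31.1 to 32.4) and Slc22a7 at 595 (275 to 318). It also stood apart in Sult1a1 at 1030 (714 to 762) and Acadvl at 427 (633 to 675). Wild-type T3 replicate 1 was high in Rdh16 at 136 (59 to 71). In wild-type T3 replicate 2, Rsad2 at 14.5 (11.5 to 12) stood high.

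Knockout PBS replicate 3 was apart in Dnah11 at 0.118 (0.343 to 0.385), Cps1 at 1900 (3510 to 3590) and Nid1 at 383 (112 to 121). It also stood apart in Dmgdh at 281 (459 to 480) and Col12a1 at 16.1 (5.9 to 6.79). The same liver had P3h1 at 52 (42.3 to 42.9) and Acadvl at 335 (479 to 489). In knockout PBS replicate 4, Cyp17a1 at 68.4 (26.4 to 31.7) and Thrsp at 76.6 (20.1 to 26.8) stood high. It also stood apart in Sox9 at 13.1 (18.2 to 19) and S100a8 at 8.18 (3.66 to 4.36). In knockout PBS replicate 2, Slc22a7 at 15.4 (3.26 to 4.53), Loxl4 at 12.9 (6.59 to 7.62) and Saa2 at 117 (4.65 to 23.8) stood high. Knockout PBS replicate 1 was high in Isg15 at 35.8 (16.5 to 18.8). Knockout T3 replicate 1 was apart in Vill at 9.67 (5.92 to 6.47) and Slc7a11 at 9.15 (24.2 to 26.7). In knockout T3 replicate 2, Cyp3a44 at 59.4 (16.5 to 23.1) and Wfdc16 at 0.0475 (all 0) stood high. Knockout T3 replicate 4 was apart in Serpina6 at 77.6 (22.3 to 29.8) and Thra at 6.04 (9.84 to 10.1).

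The genotype difference in T3 response was not the same on CCl4 and on oil for 44 named genes, by the 3-way test in edgeR over all 32 livers (adjusted p from 0.000823 to 0.0499). Over all tested genes 7.88% passed that test. Most named genes were picked by their difference on CCl4 and some by this gap itself. Both choices favour a gap, so the 44 say nothing about how common gaps are. The value in brackets is the CCl4 minus the oil difference (log2), which was below 0 for 21 genes and above 0 for 23. Among enzymes of steroid, bile acid, lipid and drug metabolism, the gap was below 0 for Sult2a5 (-7.78), Cyp2c69 (-7.92), Cyp7a1 (-6.65), Cyp2c55 (-5.61) and Cyp2c29 (-3.24). The same held for Cyp7b1 (-2.03), Rdh16 (-2.20) and Elovl3 (-6.88). In mitochondria and peroxisomes it was below 0 for Acaa1b (-3.60), Hadh (-2.27), Idh2 (-1.87), Cyc1 (-0.90), Ndufb5 (-0.80) and Coq7 (-1.0). Other genes below 0 were Esrrg (-3.92), Apoc3 (-1.50), Cps1 (-1.59), Hcfc1r1 (-2.06), Serpina6 (-4.61), Gpx2 (-4.01) and Dmgdh (-1.51). Above 0, the acute-phase genes were Lcn2 (6.71), Saa1 (8.13), Saa2 (9.47) and Saa3 (4.67), and genes of interferon and inflammation were Rsad2 (2.23), Isg15 (2.44), Ifngr1 (1.86) and Cxcl10 (3.10). Myeloid genes and proteases were Cd14 (4.69), Mmp8 (6.28) and Mmp13 (6.41). Genes of matrix, myofibroblasts, progenitors and the endoplasmic reticulum were Nid1 (2.41), P3h1 (1.93), S100a6 (2.41), Sox9 (2.25) and Hspa5 (2.58). The remaining genes above 0 were Coq8b (1.73), Alcam (1.31), Clip2 (1.81), Cyb561 (1.52), Prelid2 (2.87), Golga5 (1.24) and Zfp687 (1.44).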

How the results depend on the processing

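The number of genes whose T3 response differed between genotypes, 2300, lay between 1815 and 3128 with total counts, DESeq2 size factors, DESeq2, no filter on low counts or a mean of at least 1 CPM. It was 5834 with voom and quality weights and 3538 with all 32 livers in 1 fit. With 1 library left out it ran from 1568 to 3535, and without both farthest libraries it was 3685. The 5356 genes that T3 changed in wild-type livers stayed within 1.5 times of that number under every alternative run. The 123 genes changed in knockouts became 514 with DESeq2, 2421 with voom, 396 with all 32 livers, 669 without both farthest libraries and 36 to 267 with 1 library left out. The 46 genes that differed on PBS became 360, 1007, 351, 86 and 12 to 333 in the same order. The 2464 that differed on T3 became 6778 with voom, 4382 without both farthest libraries and 1532 to 3379 with 1 left out. The 1229 genes with a gap between CCl4 and oil became 2039 with DESeq2, 4671 with voom, 2508 without both farthest libraries and 502 to 2936 with 1 left out. The cause of these shifts was not tested. The 2698 genes that differed on oil stayed within 1.5 times, at 1906 with all 32 livers in 1 fit.

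Of 122 named genes that differed on CCl4, 99 did so under every alternative and with each library left out in turn. Under any of these, 0 changed direction. Most were picked for the smallest p or largest fold, among all genes or in a list, so this share does not describe all 2300 genes. Of the 2300, 1819 also differed with total-count scaling and 1770 with no filter. Without knockout PBS replicate 4, 1544 did, the fewest with 1 library left out. Total-count scaling ended 6 of the named calls (Acadvl, Col12a1, Coq7, Foxa2, Pfkfb1 and Rxra). No filter also ended 6 (Acadvl, Coq7, Gm3776, P3h1, Pfkfb1 and Rxra). All 32 livers in 1 fit ended 3 (Coq7, Cyp3a41a and Gm3776) and DESeq2 size factors in edgeR 1 (Gm3776). Leaving out 1 library ended between 1 and 18.

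Replicate numbers are shared between groups but do not mark a shared animal. Over 24 pairs of same-numbered libraries, 3 had deviations from the group means correlated above 0.1 (range -0.357 to 0.527), and 3 of 16 libraries correlated best with one of their own number, so the numbers do not pair the samples. A block on replicate number gave 2223 genes for the genotype difference in T3 response, 5196 for the response of wild-type mice, 93 for knockouts, 36 on PBS, 2520 on T3, 2691 on oil and 1217 for the gap, and ended 7 of the named calls.

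With 4 livers per group and no record of cages or days, adjusted p values set each difference against the spread between these animals alone. Genes with few counts in a group, such as Elovl3, Wfdc16 and Npy, have folds that depend on a prior count. Levels or counts were given for them, for Npy in wild-type livers alone. Counts do not separate near-identical copies (Cyp2c, Cyp3a, Sult2a, Saa and Mup genes). Bulk liver RNA does not separate fewer cells from less RNA per cell, and lists share members (Sox9, Trib3 and Lcn2 among them).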
